A study of Mus musculus with 6 samples.

Results

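The non-clustered, or delta, protocadherins are 10 genes here, out of 19937 genes measured on arrays in newborn mouse olfactory epithelium that had or lacked Atf5. The 10 are Pcdh1, Pcdh7, Pcdh8, Pcdh9, Pcdh10, Pcdh11x, Pcdh17, Pcdh18, Pcdh19 and Pcdh20, taken by gene symbol, and each is represented by the probe set with the highest mean over all arrays. The family was chosen by the measured values of Pcdh10, which were lower in the knockout, so they are given below as a description and not as a test. The samples were homozygous Atf5-/- pups, called KO below, and Atf5+/+ pups, called WT. All pups were C57BL6, were born of crosses between heterozygotes and were taken on postnatal day 0. Atf5 encodes a DNA-binding regulator related to CREB, and the labels name no Cre line, so the loss is read as that of the whole animal. Each genotype had 3 arrays, each of RNA from the septa and turbinates of a pool of 3 pups drawn from different litters, so the tissue holds neurons, supporting cells and the connective tissue beneath them.

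Protocadherins are single-pass membrane proteins of the cadherin superfamily that bind the same protein on a neighbouring cell. Unlike the clustered protocadherins, which lie in tandem arrays, the delta protocadherins are separate genes, and they are divided by their extracellular repeats and cytoplasmic motifs into delta-1 and delta-2 groups. Delta-1 proteins carry a motif that binds protein phosphatase 1, and several delta-2 proteins recruit the WAVE complex, which drives branched actin assembly at cell contacts. In the olfactory epithelium they are expressed in subsets of sensory neurons and have been studied for the growth and sorting of the axons that reach the olfactory bulb.

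Pcdh19 and Pcdh17, both delta-2 genes like Pcdh10, fell in KO epithelium, while Pcdh18 and Pcdh8 did not pass the test, and none of the 4 delta-1 genes or Pcdh20 passed it. Of the 10 genes, 3 were lower and 0 were higher by limma at an adjusted p under 0.05, a threshold that 3.24% of all genes passed in the lower direction and 0.502% in the higher. In either direction 3.74% of all genes passed. Leaving out Pcdh10, by whose fall the family was picked, 2 of the other 9 were lower. The replicate number fitted as a block gave the same 3 members, which without Pcdh10 were Pcdh19 and Pcdh17 of the other 9. With that block 4.46% of all genes were lower, 2.11% higher and 6.57% passed in either direction. With all rows of the table tested, 2 of the 10 passed, Pcdh10 and Pcdh19, against 1.03% of rows lower and 1.15% in either direction. Leaving out Pcdh10, Pcdh19 alone of the other 9 passed there. The median difference of the 10 genes was 0.01 on the log2 scale, the same as the median of 0.01 over all genes, and that of the 4 delta-2 genes other than Pcdh10 was -0.12, with 2 of the 4 lower. The delta-2 and delta-1 groups were not tested against each other. All levels below are log2 array values, which can be compared between arrays for 1 gene but not between genes, and every difference is KO minus WT on that log2 scale. The comparison rests on 3 arrays a genotype, which limits its precision.

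Promoter windows are shown for the 3 genes that were lower in KO. Each window is from RefSeq, build GRCm38.p6, and runs from 250 bases before the gene start to 50 after it, 5′ to 3′ on the strand of the gene. Pcdh10 is at chr3:45378148-45378447 on the plus strand, Pcdh19 at chrX:133688944-133689243 on the minus strand, and Pcdh17 at chr14:84443313-84443612 on the plus strand. Capitals mark TGACG, the core of the site bound by ATF/CREB factors, searched on both strands.
Pcdh10: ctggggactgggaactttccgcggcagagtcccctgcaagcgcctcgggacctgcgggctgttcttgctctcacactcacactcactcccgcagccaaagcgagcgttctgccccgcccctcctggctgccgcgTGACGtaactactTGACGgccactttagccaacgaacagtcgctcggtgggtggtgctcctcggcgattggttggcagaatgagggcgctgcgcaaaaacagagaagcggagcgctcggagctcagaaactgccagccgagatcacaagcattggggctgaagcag
Pcdh19: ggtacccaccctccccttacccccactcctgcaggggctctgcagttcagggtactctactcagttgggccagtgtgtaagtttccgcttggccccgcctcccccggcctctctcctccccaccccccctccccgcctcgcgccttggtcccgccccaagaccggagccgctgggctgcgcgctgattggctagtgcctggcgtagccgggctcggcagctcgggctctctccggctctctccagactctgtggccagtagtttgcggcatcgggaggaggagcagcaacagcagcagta
Pcdh17: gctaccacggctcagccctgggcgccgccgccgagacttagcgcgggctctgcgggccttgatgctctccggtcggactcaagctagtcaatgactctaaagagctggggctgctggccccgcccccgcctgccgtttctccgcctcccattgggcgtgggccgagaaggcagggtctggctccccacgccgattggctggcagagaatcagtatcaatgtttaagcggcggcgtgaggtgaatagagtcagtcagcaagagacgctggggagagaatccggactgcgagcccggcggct

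The Pcdh10 window held TGACG in 2 places, the first beginning 116 bases before the gene start, and the Pcdh19 and Pcdh17 windows held none. Among the 8 of 10 family members whose windows were searched, TGACG also stood in the windows of Pcdh9, which did not pass the test. TGACG was present in 20.8% of the 32851 windows of all genes. The full palindrome TGACGTCA, which contains TGACG, was in none of the 9 windows of these 8 members and in 1.79% of all windows. TGATGNAA, a composite site of C/EBP and ATF factors, was in none of them and in 3.97% of all windows, and CCCNNGGG, the core of the site of Ebf factors of olfactory neurons, was in none and in 13.7%. The 3 printed windows had 24, 18 and 26 CG pairs in the order shown, against a median of 7 over all windows, and their GC content was 62.3%, 67.7% and 65.0%, against a median of 52.7%. Windows of members that did not fall had 23 pairs in Pcdh18, 18 and 19 in those of Pcdh9, 14 in Pcdh8, 11 in Pcdh7 and 4 in Pcdh20. Their GC content was 63.0% in Pcdh18, 62.7% and 62.3% in those of Pcdh9, 54.3% in Pcdh8, 59.3% in Pcdh7 and 43.7% in Pcdh20. These are matches of letters only, and no binding was measured.

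Pcdh10, also called OL-protocadherin, guides the growth of axons in the mouse forebrain and takes part in the removal of synapses. Its levels were 8.41, 8.55 and 8.49 in the KO arrays, against 9.34, 9.58 and 9.45 in the WT arrays. Every KO array lay well below every WT array. The means were 8.49 ± 0.07 in KO and 9.46 ± 0.12 in WT (SD, n = 3 each), a difference of -0.97 (SE 0.08, 95% interval -1.15 to -0.80), which is 1.96-fold lower in KO. It stayed between -1.03 and -0.91 when any 1 array was left out.

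Pcdh19, an X-linked gene whose human counterpart is mutated in an epilepsy that affects mainly girls, encodes a protein that can join N-cadherin in a shared adhesion complex. Its levels were 8.72, 8.92 and 8.92 in KO and 9.42, 9.30 and 9.38 in WT. The groups did not overlap, and the first KO array was the lowest of the 6. Pcdh19 averaged 8.86 ± 0.12 in KO and 9.37 ± 0.06 in WT (SD, n = 3 each), and fell by 0.51 (SE 0.08, 95% interval -0.68 to -0.34), or 1.43-fold, with an adjusted p of 0.00628 by limma. The fall passed the threshold under all 14 alternative settings, with adjusted p between 0.0153 and 0.0323 when 1 array was left out.

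Pcdh17, which in mice gathers at synapses of the basal ganglia and helps axons extend along one another, had levels of 9.73, 9.89 and 9.87 in KO and of 10.27, 10.16 and 10.15 in WT. The 3 KO arrays again lay below the 3 WT arrays, by less than for Pcdh10. Its means were 9.83 ± 0.09 in KO and 10.19 ± 0.07 in WT (SD, n = 3 each). The difference was -0.36 (SE 0.07, 95% interval -0.52 to -0.21), or 1.29-fold, with an adjusted p of 0.0206 by limma. Pcdh17 passed in 10 of 14 settings. The adjusted p was 0.0844 without KO replicate 1, 0.0958 without WT replicate 1, 0.0510 without WT replicate 2 and 0.0766 when all rows of the table were tested together, while the difference kept its sign in each.

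**Figure D1:**
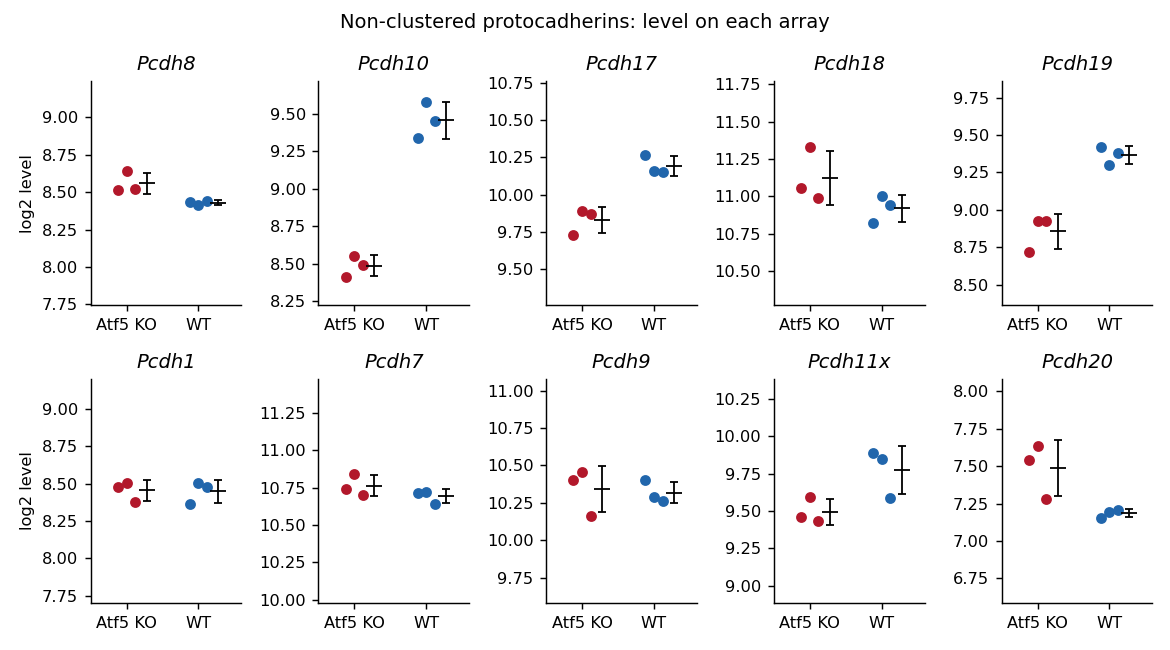
Log2 array level (vertical axis) of each of the 10 non-clustered protocadherins, with 1 point per array and a bar at each genotype's mean ± SD, for 3 KO and 3 WT arrays. In Pcdh10, Pcdh19 and Pcdh17 all KO points lie below all WT points, and in Pcdh8 and Pcdh20 all KO points lie above.

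The other delta-2 genes, Pcdh18 and Pcdh8, had higher mean levels in KO and did not pass the test. Pcdh18, whose mouse protein binds the signalling adaptor Dab1, had levels of 11.06, 11.33 and 10.99 in KO and 10.82, 11.00 and 10.94 in WT. The 2 ranges overlapped, since the lowest KO array lay below the highest WT array. The difference was 0.20 (95% interval -0.01 to 0.42, adjusted p 0.339 by limma). Pcdh8, also known as arcadlin, is induced by neuronal activity in the hippocampus and draws N-cadherin into the cell. Its levels were 8.51, 8.64 and 8.52 in KO and 8.43, 8.41 and 8.44 in WT, so every KO array was above every WT array, as in 10.8% of all genes. Its difference of 0.13 (95% interval -0.01 to 0.27) had an adjusted p of 0.350.

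Of the delta-1 genes, Pcdh11x had the largest difference in size and none passed the test, with a median difference of 0.01 over the 4. Pcdh11x, an X-linked gene that acts on dendrite branching in mouse cortical neurons, had levels of 9.46, 9.60 and 9.43 in KO and 9.89, 9.85 and 9.59 in WT. WT replicate 3 fell within the KO range, apart from the other 2 WT arrays. The difference was -0.28 (SE 0.09, 95% interval -0.48 to -0.08), with an adjusted p of 0.156 by limma. It was -0.37 with an adjusted p of 0.0446 without WT replicate 3, the only setting of 14 in which it passed.

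Pcdh7, an adhesion protein known in frog embryos as NF-protocadherin, had levels of 10.74, 10.84 and 10.70 in KO and 10.72, 10.72 and 10.64 in WT, a difference of 0.07 (95% interval -0.07 to 0.21, adjusted p 0.669). Pcdh1, an adhesion protein of the airway epithelium linked to asthma in people, had levels of 8.48, 8.51 and 8.38 in KO and 8.36, 8.51 and 8.48 in WT. The groups overlapped in both genes, and the Pcdh1 difference was 0.00 (95% interval -0.15 to 0.16, adjusted p 0.986), with a sign that turned when single arrays were left out. Pcdh9, another delta-1 gene expressed in the nervous system, had levels of 10.40, 10.46 and 10.16 in KO and 10.40, 10.29 and 10.26 in WT, with a difference of 0.02 (95% interval -0.17 to 0.22, adjusted p 0.933). Pcdh9 was the only member with 2 probe sets, and the second differed by -0.03. For these 3 genes the intervals hold no difference as large as that of Pcdh17.

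Pcdh20 is placed outside both groups and has been described in the sensory neurons of the mouse olfactory epithelium, with a difference between the sexes. Its levels were 7.54, 7.64 and 7.28 in KO and 7.15, 7.19 and 7.21 in WT. All KO arrays lay above all WT arrays, with KO replicate 3 nearest to them. The difference of 0.30 (SE 0.09, 95% interval 0.10 to 0.51) did not pass, with an adjusted p of 0.127 by limma, and it passed only without KO replicate 3, at 0.41 with an adjusted p of 0.0189. Pcdh20 was the only member whose mean level lay under the 30th percentile of all genes. Without overlap, 3 members had KO below WT, where 10.3% of all genes did, and 2 had KO above WT.

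**Figure D2:**
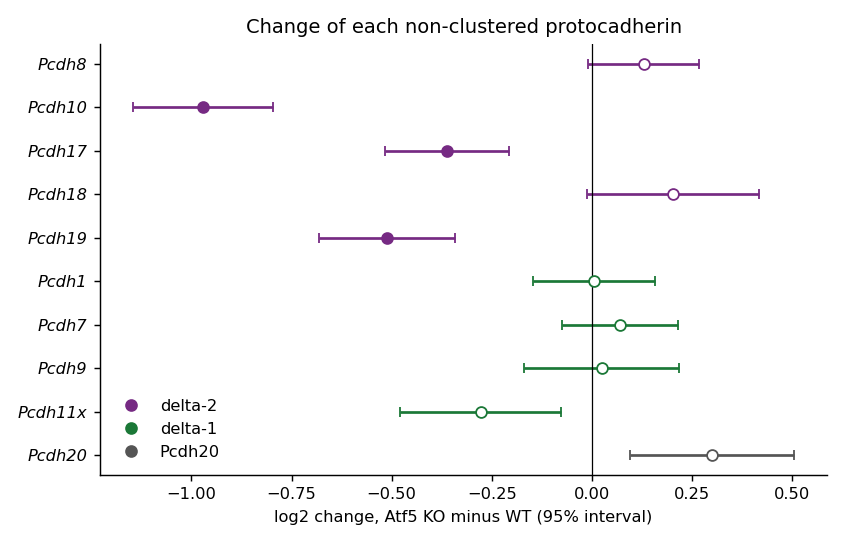
Difference in log2 level, KO minus WT, of each non-clustered protocadherin with its 95% interval, coloured by group, filled where the adjusted p is under 0.05. The intervals of Pcdh10, Pcdh19, Pcdh17 and Pcdh11x lie below 0 and that of Pcdh20 above 0, but the adjusted p of Pcdh11x is 0.156 and that of Pcdh20 is 0.127.

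Pup sex is not in the labels, and the pools differed in it by their sex-linked transcripts, which were looked up after the values were seen. Xist, the RNA that coats the inactive X chromosome in female cells, had levels of 12.70, 13.19 and 13.17 in KO and 13.25, 12.53 and 7.39 in WT, so WT replicate 3 stood apart. The Y-linked gene Uty had levels of 9.51, 8.59 and 8.26 in KO and 7.78, 9.61 and 10.11 in WT, with WT replicate 3 the highest. Without WT replicate 3, Pcdh19 fell by 0.51 with an adjusted p of 0.0210 by limma, against -0.51 with all arrays, while Pcdh11x moved as given above. The other pools also differed in Uty, and the part of pup sex in any member's difference was not tested. Pcdh20 had levels of 7.54, 7.64 and 7.28 in KO and 7.15, 7.19 and 7.21 in WT, which were low among all genes. Its relation to pup sex was not tested.

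The clustered protocadherins, which give single neurons a surface identity, were measured by name through the 22 Pcdhb genes of the beta cluster. Pcdhb1 alone passed the test, where 3.74% of all genes did. Its levels were 9.23, 9.18 and 9.20 in KO and 10.27, 10.05 and 10.06 in WT. The groups were far apart, with a fall of 0.93 (SE 0.07, 95% interval -1.09 to -0.76), or 1.90-fold, and an adjusted p of 0.000432 by limma, and it passed in all 14 settings. The other 21 genes differed by -0.12 to 0.14, with a median of -0.06 and none called. Pcdhb2, next to Pcdhb1 by number, had levels of 8.47, 8.52 and 8.33 in KO and 8.39, 8.46 and 8.47 in WT, a difference of 0.00 (95% interval -0.16 to 0.16, adjusted p 0.999). Probes of such similar genes may share targets. The alpha cluster was seen through 1 row that names 14 alpha genes, with levels of 8.59, 8.57 and 8.49 in KO and 8.79, 8.80 and 8.73 in WT. That row did not pass among all rows (difference -0.22, 95% interval -0.37 to -0.08, adjusted p 0.180).

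**Figure D3:**
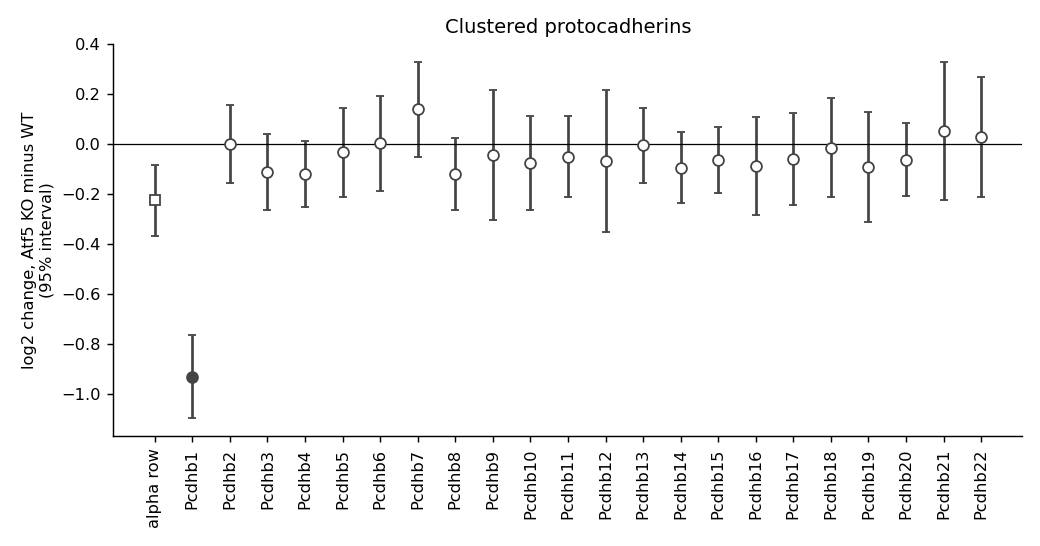
Difference in log2 level, KO minus WT, with 95% intervals for the row of alpha genes (square) and the 22 beta-cluster protocadherins, filled where the adjusted p is under 0.05. Pcdhb1 stands at -0.93, the alpha row at -0.22, and the other 21 genes lie between -0.12 and 0.14.

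Of 16 measured related genes outside both families, such as the giant Fat and Dachsous cadherins, 1 fell, where 3.24% of all genes did. It was Cdhr1, a cadherin of photoreceptors and of the output neurons of the olfactory bulb, with levels of 9.11, 9.28 and 9.09 in KO and 9.74, 9.58 and 9.83 in WT. The KO arrays all lay below the WT arrays, and the fall was 0.55 (SE 0.08, adjusted p 0.00693 by limma). With a replicate block 3 of the 16 passed, where 6.57% of all genes did. The others were Cdh23, with a difference of -0.28, and Dchs1, with 0.26, which are named after their values were seen. Pcdh12, a protocadherin of blood vessel endothelium, differed by -0.11 (adjusted p 0.603) and Pcdh15, a part of the tip links of hair cells, by -0.02 (adjusted p 0.895).

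The machinery that binds the cytoplasmic tails of the family gave no call in the main test. Over all genes 3.74% passed in either direction, so no call in lists this short is close to that share. Of the WAVE complex, 0 of 10 measured genes passed, with differences from -0.08 to 0.14 and a median of 0.07. Nckap1, the subunit through which Pcdh10 is joined to the complex, had levels of 11.57, 11.61 and 11.47 in KO and 11.56, 11.61 and 11.54 in WT. The groups overlapped, and the difference was -0.02 (95% interval -0.16 to 0.13, adjusted p 0.930). Nckap1l, its counterpart in blood cells, differed by 0.07 (adjusted p 0.658) and Abi2, another subunit, by 0.14 (adjusted p 0.329).

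Of 11 measured genes reported as partners of delta protocadherins, 0 passed, where 3.74% of all genes did. Ppp1ca and Ppp1cb, catalytic subunits of protein phosphatase 1, differed by -0.04 (adjusted p 0.815) and -0.09 (adjusted p 0.538). Dlg4, which encodes the postsynaptic scaffold PSD-95, had levels of 9.76, 9.88 and 9.73 in KO and 10.20, 9.99 and 10.13 in WT. The KO arrays lay below the WT arrays, with a difference of -0.31 and an adjusted p of 0.0587 by limma, and Dlg4 passed under a repeated quantile normalization and without WT replicate 2. Of 10 catenins, which tie classical cadherins to actin, 0 passed, and Ctnna2, the alpha catenin of neurons, had the lowest p, with a difference of -0.25 (95% interval -0.38 to -0.11, adjusted p 0.0548). Ctnna2 passed with a replicate block, at an adjusted p of 0.0486, and under quantile normalization. Ctnna1, the alpha catenin of epithelia, differed by 0.00 (adjusted p 0.986).

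Among 22 classical and other cadherins, Cdh18 alone fell, where 3.24% of all genes did. Cdh18, a type II cadherin of the nervous system, had levels of 8.46, 8.63 and 8.36 in KO and 9.31, 9.52 and 9.22 in WT. The groups were separate, and the fall was 0.87 (SE 0.10, adjusted p 0.00176 by limma), or 1.82-fold. A second probe set of Cdh18 differed by -0.29. Cdh1, the cadherin of epithelia, and Cdh2, N-cadherin, each differed by 0.11, with adjusted p of 0.523 and 0.440.

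Of 17 other molecules that sort olfactory axons, 6 fell and 0 rose, with a median difference of -0.23. Over all genes 3.24% fell. Cntn4, an immunoglobulin-family contactin, fell by 1.49 (SE 0.11, adjusted p 0.000417 by limma), and Kirrel2, an adhesion protein whose level follows neuronal activity, by 1.36 (SE 0.14, adjusted p 0.00131). Ncam2, the neural adhesion molecule of olfactory axons, had levels of 9.43, 9.45 and 9.25 in KO and 10.07, 9.94 and 9.79 in WT. It fell by 0.56 (adjusted p 0.00892). Epha5, a receptor for ephrins, fell by 0.49 (adjusted p 0.0198). These groups did not overlap. Kirrel, the relative of Kirrel2, differed by 0.02 (adjusted p 0.930), with a sign that turned under quantile normalization. Without WT replicate 1 the list's count was 3, namely Kirrel2, Cntn4 and Ncam2.

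**Figure D4:**
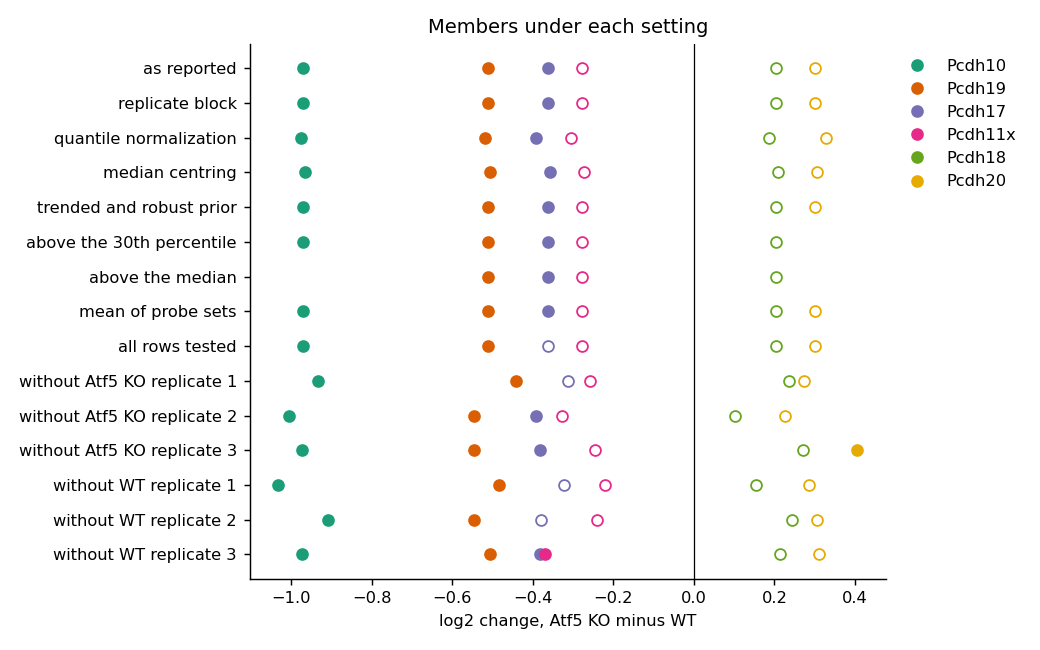
Difference in log2 level, KO minus WT (horizontal axis), of 6 non-clustered protocadherins as reported and under each of 14 alternative settings (vertical axis), filled where the adjusted p is under 0.05. Pcdh10, shown as a description, and Pcdh19 are filled under every setting that includes them. Pcdh17 is filled in 10 of 14 settings, Pcdh11x and Pcdh20 in 1 each and Pcdh18 in none.

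Genes whose centred levels followed Pcdh10 most closely over the 6 arrays were Gadl1, Cdh18, Cartpt, Ppp2r2c and Clstn2, with a root mean square difference of 0.09, 0.11, 0.11, 0.12 and 0.13 on the log2 scale. This order includes the genotype difference by which the family was chosen, leaves out olfactory receptors and provisional symbols, and is a description of 6 arrays. Gadl1, an enzyme gene, had levels of 8.81, 8.95 and 8.88 in KO and 9.99, 10.05 and 9.97 in WT. Cartpt, which encodes the CART neuropeptide, had levels of 8.87, 8.67 and 8.84 in KO and 9.75, 9.87 and 9.85 in WT. Both had all KO arrays below all WT arrays, by -1.12 and -1.03 on average. Ppp2r2c, a regulatory subunit of protein phosphatase 2A, differed by -0.87 and Clstn2, a calsyntenin of the cadherin superfamily, by -0.81.

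The genes next to the members on their chromosomes did not pass the test. Of 18 measured neighbours outside the family, 0 passed, where 3.74% of all genes did. Their differences ran from -0.10 to 0.24, with a lowest adjusted p of 0.134 by limma. Pcdh10 lies between D3Ertd751e and Pabpc4l, which differed by 0.19 (adjusted p 0.343) and 0.20 (adjusted p 0.134). The neighbours of Pcdh17, Olfm4 and Diaph3, differed by 0.24 (adjusted p 0.316) and 0.16 (adjusted p 0.452), and those of Pcdh19, Gm4994 and Tnmd, by -0.02 (adjusted p 0.918) and 0.23 (adjusted p 0.209).

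Atf5 itself had levels of 9.43, 9.44 and 9.50 in KO and 10.54, 10.96 and 10.63 in WT. It fell by 1.25 (SE 0.10, adjusted p 0.000499 by limma), in the direction of the labels, and whether its probes lie in the deleted part is not given in the sources used here.

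Markers of cell types moved beside the lowered members. Over all genes 3.24% fell and 0.502% rose in the main fit. Of 14 markers of mature olfactory sensory neurons 13 fell, with a mean level over the list of 9.16 to 9.30 in KO arrays and 10.63 to 10.95 in WT arrays, and Omp, the marker protein of these neurons, fell by 2.23. S100a5, a calcium-binding protein of active ones, fell by 2.74. Of 11 markers of immature neurons 3 fell, with a mean level of 11.01 to 11.19 in KO and 11.26 to 11.39 in WT, and Gap43, a growth cone protein, fell by 0.43 and Dcx, a microtubule protein of young neurons, by 0.68. The count for immature neurons was 1 without WT replicate 1, without WT replicate 2 or with all rows tested. Of 7 markers of dividing cells 3 rose, with a mean level of 10.58 to 10.75 in KO and 10.18 to 10.42 in WT, among them Plk1, a mitotic kinase, by 0.57, while Mki67, the Ki-67 antigen of cycling cells, differed by 0.29 without passing. The count for dividing cells was 7 with a replicate block, 0 without KO replicate 2 or with all rows tested, and 1 without KO replicate 1, WT replicate 1 or WT replicate 3. With the replicate block 2.11% of all genes were higher. Their part in the falls of Pcdh10, Pcdh19 and Pcdh17 was not tested. In whole tissue, fewer cells of a type and less RNA per cell cannot be told apart.

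Markers of other cell types and tissues also varied. In the main fit 3.24% of all genes were lower, 0.502% were higher and 3.74% passed in either direction. A count of 0 in lists this short is close to that share. Of 10 endothelial and pericyte markers 0 passed, with mean levels of 10.53 to 10.54 in KO and 10.31 to 10.44 in WT (Pecam1, an endothelial adhesion protein, 0.21; Tek, a vessel receptor kinase, 0.24). Of 11 markers of mesenchyme, cartilage and bone 1 rose, Lum, a matrix proteoglycan, by 0.35, while Col1a1, a collagen of bone and skin, differed by 0.13 without passing, with mean levels of 11.13 to 11.33 in KO and 11.04 to 11.14 in WT. Lum did not pass without KO replicate 2 or 3 or WT replicate 1 or 2, under either renormalization, above the median or with all rows tested. Of 3 tooth enamel markers 2 fell, with mean levels of 7.98 to 9.02 in KO and 9.41 to 11.61 in WT, and Enam, an enamel matrix protein, fell by 2.47. WT replicate 3 had the lowest enamel level of the WT arrays, 9.41 against 11.61 and 11.35, and 3 markers fell without it. None passed without KO replicate 1 or 2 or WT replicate 1 or 2, with the trended prior, above the median or with all rows tested. Of 4 vomeronasal markers 2 fell, with a median difference of -0.36. Gng8, which is also in the list of immature neurons, was among them. The vomeronasal count was 0 without WT replicate 1, without WT replicate 2 or with all rows tested and 1 without KO replicate 1. Of 8 skeletal muscle markers 0 passed, with all 8 above 0, a median difference of 0.37 and mean levels of 9.68 to 10.04 in KO and 8.78 to 9.81 in WT, where WT replicate 1 was the lowest, at 8.78 against 9.81 and 9.69. In the lists for precursors, supporting, basal, glial, microvillous, ciliated, myeloid and red blood cells 0 passed. With a replicate block 1 precursor, 1 supporting, 1 glial, 2 muscle and 1 red blood cell marker passed, and no more than 1 of any of these lists passed in any other setting. With that block 6.57% of all genes passed in either direction. The part of these cell types and tissues in the members' differences was not tested.

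**Figure D5:**
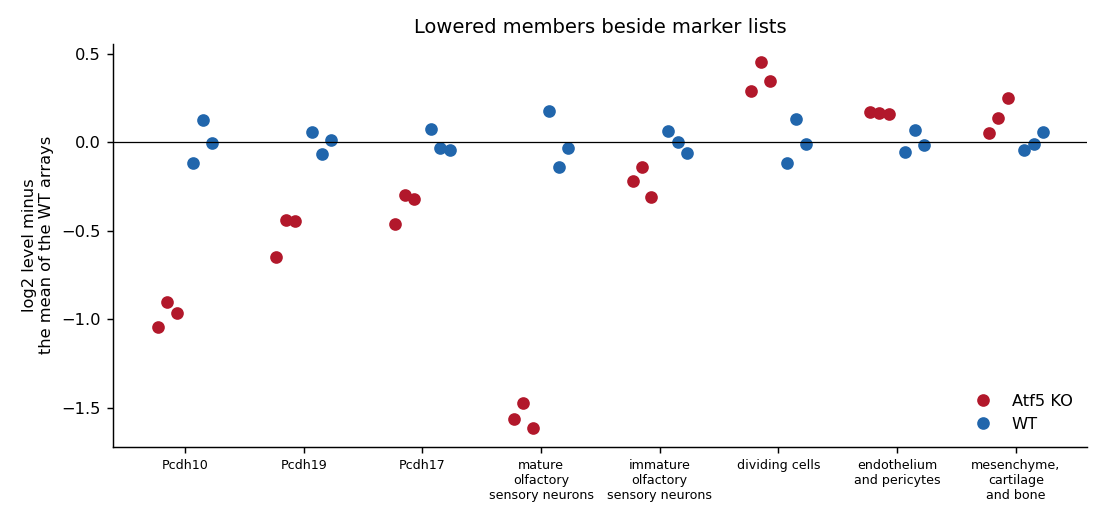
Log2 level of each array minus the mean of the WT arrays for Pcdh10, Pcdh19 and Pcdh17 and for the mean of 5 marker lists, with 1 point per array. The KO points of the 3 genes and of the mature and immature neuron lists lie below the WT points. Those of dividing cells and of endothelium and pericytes lie above them, and those of mesenchyme, cartilage and bone overlap.

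Over all 34760 rows the 6 arrays had medians of 8.67 to 8.72. Over the same rows they correlated at 0.992 to 0.994 within a genotype and 0.988 to 0.992 between genotypes. No pair of arrays shared more than 12 identical values.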

How the data were processed

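RNA of 6 pools was hybridised to 6 Affymetrix whole-transcript arrays, with 1 colour. Per the labels' protocols, RNA was extracted with Trizol and RNeasy and labelled with biotin. The authors deposited values read here as log2 expression levels, from 4.50 to 14.7. RMA, affy and limma are named in the submitters' processing notes, with versions and log base not given in the sources used here. RMA makes the arrays' distributions alike, so a shift shared by most genes would not be seen.

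Of 34760 rows, 21640 name 1 symbol in GEO's platform annotation, 1321 several and 11799 none. Where a gene had several probe sets (954 genes), that with the highest mean was taken, which left 19937 genes, unfiltered. KO and WT were compared by limma 3.58.1 (lmFit, eBayes) in R 4.3.3, 2-sided, adjusted by Benjamini-Hochberg over the 19937 genes at a threshold of 0.05. Every adjusted p is from that fit unless another setting is named. Errors (SE) are moderated by limma, and folds are 2 to the power of the log2 difference. The procedure was tested on simulated data.

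The members and lists were chosen with earlier results of these data known. Named genes were all members, Atf5, the first 2 measured genes of each family list with up to 4 called (or the one with the lowest p), the first and the most changed marker of the main cell types, the 5 genes closest to Pcdh10 and the neighbours of lowered members. Members of the other marker lists, apart from Gng8, and other neighbours are given by counts. Promoter windows come from RefSeq, whose table gave neighbours and chromosomes. Promoters of Pcdh1 and Pcdh11x and protein sequences were not used here. No detection call was used, so absence of a transcript is not stated.

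Samples were grouped by title. Arrays with the same replicate number deviated from their group means together (correlations 0.295, 0.122 and 0.234 for numbers 1, 2 and 3). Each exceeded 0.1, so the numbers were read as pairing the samples. The main fit did not use these pairs, so its errors, intervals and adjusted p are those of unpaired groups. When the pairs were used, 1310 genes passed (421 higher), against 745 (100 higher) in the main fit. The 3 lowered members were the same in both. What same-numbered pools share is not labelled. The alternatives were the replicate number as a block, quantile normalization, median centring, a trended and robust prior, genes above the 30th percentile or the median, the mean of probe sets, all rows tested, and leaving out each array.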

Additional observations from a re-analysis of the deposited data

How the results depend on the processing

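The replicate block changed the call of no member and moved some counts, to 3 related protocadherins, 1 catenin and, over all genes, 1310 changed (421 higher), beside the marker lists named above. It put the share of lower calls among all calls at 67.9%, against 86.6% in the main fit. The block changed no other call of a family gene named here. Over all genes, 432 changed (358 lower) above the 30th percentile, 286 (226 lower, 60 higher) above the median, 321 (305 lower, 16 higher) with all rows tested, and 410 to 649 (383 to 584 lower, 27 to 127 higher) without 1 array. Quantile normalization gave 1 called partner (Dlg4) and 1 catenin (Ctnna2), and the median filter, which dropped Cdh18, gave 0 cadherins. Without 1 array the axon sorting list held 3 to 6 calls and the partners 0 to 1. Pcdh17 kept its difference of -0.36 with all rows tested without passing. The differences of Pcdh9 turned to -0.0053 with the mean of probe sets and -0.012 under quantile normalization, which also gave -0.016 for Ctnna1, -0.0048 for Kirrel and 0.011 for Gm4994. Without 1 array, differences ran from -0.039 to 0.043 for Pcdh1, -0.034 to 0.11 for Pcdh9, -0.37 to -0.22 for Pcdh11x, -0.39 to -0.31 for Pcdh17, 0.10 to 0.27 for Pcdh18, 0.029 to 0.10 for Pcdh7 and 0.23 to 0.41 for Pcdh20. Signs also turned for Pcdhb2 (-0.040 to 0.055), Nckap1 (-0.050 to 0.023), Ctnna1 (-0.027 to 0.038), Kirrel (-0.040 to 0.059), Col1a1 (-0.071 to 0.27) and Gm4994 (-0.041 to 0.0029). The cause of these shifts was not tested. Pcdh20 has no value under either filter, and Pcdh10, Pcdh1 and Pcdh8 none under the median filter. Groups of 3 arrays were not tested for outlying values.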
